A study of Mus musculus with 6 samples.

Results

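Adrenergic receptors, the membrane receptors for noradrenaline and adrenaline, were examined in mouse prefrontal cortex through 7 of their genes, *Adra1a*, *Adra1b*, *Adra1d*, *Adra2a*, *Adra2b*, *Adra2c* and *Adrb1*. The genes were chosen by name, and all 7 were found among the 56923 genes counted. RNA came from 6 samples, 3 from constitutive *Pla2g4e* knockout mice (KO) and 3 from wild-type mice (WT), and the question was how high each receptor transcript is and whether it differs between the groups. The KO mice carry the *Pla2g4e* tm2a allele, a LacZ gene trap predicted to be null, on a C57BL/6N-A tm1Brd background. By the study's dissection scheme, the tissue named prefrontal cortex was the front portion of the brain. Age and sex were not given for these 6 samples. *Pla2g4e* encodes a calcium-dependent phospholipase that forms N-acylphosphatidylethanolamines. No source used here states that each library was a separate animal, so p-values measure only the spread between these samples, part of which may be technical.

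Noradrenaline reaches the cortex through axons of the locus coeruleus in the brainstem. In prefrontal cortex it sets arousal, attention and working memory, and its action depends on which receptor is engaged. Alpha-1 receptors couple to Gq and raise phospholipase C activity, alpha-2 receptors couple to Gi and lower cAMP, and beta-1 receptors couple to Gs and raise cAMP. The alpha-2A receptor, the product of *Adra2a*, is known for strengthening prefrontal network firing through reduced cAMP.

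Library totals ranged from 11792463 to 14594230 fragments (read pairs). *Pla2g4e*, the targeted gene, was at 5.95, 8.12 and 7.97 CPM (counts scaled to a common library size with TMM factors) in the KO libraries. In the libraries labelled WT it was at 7.84, 11.3 and 13.2 CPM. Its transcript was counted in all 3 KO libraries, and WT replicate 1 lay inside the KO range. The log2 fold change was -0.55 (SE 0.21, unadjusted p = 0.0205, adjusted p = 0.635 by limma-voom). Counts over all exons do not separate those before and after the gene trap. At the protein level, the study found no Pla2g4e in hippocampal extracts of KO mice by Western blot. Its immunostaining showed specific signal in WT brain sections only. KO replicate 1 and WT replicate 1 had *Xist* at 1387 and 969 CPM and almost no Y-linked transcript, whereas the other 4 libraries had Y-linked transcripts, so each group held 1 library of the former kind and came from at least 2 animals. Markers of excitatory and inhibitory neurons were abundant in each library, with *Slc17a7* from 1161 to 1628 CPM and *Gad1* from 238 to 581 CPM. The summed level of olfactory bulb markers was 619 CPM in KO replicate 1, the highest, and 135 CPM in WT replicate 2, the lowest, and these libraries stand apart in several receptor values below.

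The genes lie on 5 chromosomes of GRCm39 and all are protein-coding. *Adra1a* is on the plus strand of chromosome 14 (66872700 to 67008617), *Adra1b* on the minus strand of chromosome 11 (43665433 to 43792037) and *Adra1d* on the minus strand of chromosome 2 (131387770 to 131404203). *Adra2a* (chromosome 19, 54032582 to 54037413), *Adra2b* (chromosome 2, 127205128 to 127209141) and *Adra2c* (chromosome 5, 35435663 to 35439107) are short genes on the plus strand. *Adrb1* is on the plus strand of chromosome 19, from 56710631 to 56721545. Levels were compared between genes as FPKM, CPM per kilobase of annotated exon. The exon length was 1899 bases for *Adra1d*, 8728 bases for *Adra1a* and from 3382 to 4832 bases for the other members.

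Sequences around the transcription start, from 250 bases before to 50 after it, were taken from RefSeq on GRCm38.p6 for 5 of the 7 genes, which have 6 windows. They are shown for *Adra1b*, *Adra2a* and *Adra2c*, which differ from each other in level or in their pattern across libraries. Capitals mark the letters of a TATA box (TATAAA), a GC box (GGGCGG) or an E-box (CACGTG), searched on both strands. The 2 windows of *Adra1b*, at chr11:43836440-43836739 and chr11:43901188-43901487 on the minus strand, are followed by those of *Adra2a* (chr19:54045009-54045308, plus strand) and *Adra2c* (chr5:35278316-35278615, plus strand).
Adra1b, downstream start: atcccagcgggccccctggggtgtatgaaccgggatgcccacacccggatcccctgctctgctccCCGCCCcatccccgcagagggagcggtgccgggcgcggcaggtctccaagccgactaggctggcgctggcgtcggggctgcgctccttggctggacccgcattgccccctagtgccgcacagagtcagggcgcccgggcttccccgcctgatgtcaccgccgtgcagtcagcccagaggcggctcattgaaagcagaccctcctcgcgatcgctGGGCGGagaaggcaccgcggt
Adra1b, upstream start: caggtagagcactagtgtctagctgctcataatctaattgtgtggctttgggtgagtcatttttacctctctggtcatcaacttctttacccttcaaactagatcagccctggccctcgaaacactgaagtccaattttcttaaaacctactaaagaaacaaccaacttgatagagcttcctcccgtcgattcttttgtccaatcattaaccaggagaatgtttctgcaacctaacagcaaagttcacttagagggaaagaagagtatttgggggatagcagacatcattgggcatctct
Adra2a: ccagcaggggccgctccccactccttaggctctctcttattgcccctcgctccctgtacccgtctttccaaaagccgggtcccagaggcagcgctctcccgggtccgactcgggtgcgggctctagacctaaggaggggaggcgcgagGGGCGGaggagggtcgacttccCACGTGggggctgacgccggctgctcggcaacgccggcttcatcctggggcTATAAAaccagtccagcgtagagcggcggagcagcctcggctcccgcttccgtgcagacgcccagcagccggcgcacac
Adra2c: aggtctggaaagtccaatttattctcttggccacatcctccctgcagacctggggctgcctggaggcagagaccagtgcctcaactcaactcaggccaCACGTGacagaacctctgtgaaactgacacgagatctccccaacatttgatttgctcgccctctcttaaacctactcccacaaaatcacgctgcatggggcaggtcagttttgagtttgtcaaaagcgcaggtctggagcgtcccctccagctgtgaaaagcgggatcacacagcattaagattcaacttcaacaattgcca

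The starts of *Adra1b* differed in base composition, with 71.3% G and C at the downstream start and 42.3% at the upstream start. The *Adra2a* window held 68.7% G and C and the *Adra2c* window 51.3%, against a median of 52.7% over 32851 windows. *Adra2a* was the member with a TATA box match, 29 bases before the start, and it also held a GC box and an E-box match. *Adra2c* held an E-box match alone. The windows of *Adra2b* and *Adrb1*, not shown, held 2 and 1 GC box matches. A TATA box match was found in 13.6% of all windows, a GC box match in 35.7% and an E-box match in 7.15%. No member's window held the cAMP response element letters TGACGTCA, which 1.79% of all windows hold. These matches describe the letters of the windows and were not tested for function.

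*Adra1d* was the receptor transcript of highest level per length and *Adra2b* was close to absent. *Adra1d*, whose alpha-1D product couples to Gq, was at 10.7, 11.3 and 12.6 FPKM in KO and 13.9, 14.1 and 11.6 FPKM in WT. Its mean of 12.4 ± 1.41 FPKM (SD, n = 6 libraries) exceeded that of 80.2% of the 19084 genes tested. *Adrb1*, which encodes the beta-1 receptor, averaged 7.92 ± 1.12 FPKM, and *Adra1b*, which encodes the alpha-1B receptor, averaged 7.64 ± 1.55 FPKM. The alpha-2 genes were lower. *Adra2c* averaged 3.78 ± 0.473 FPKM and *Adra2a* 2.73 ± 0.654 FPKM. *Adra1a*, which encodes the alpha-1A receptor, averaged 2.04 ± 0.382 FPKM over its long annotated exons, above 41.5% of the genes tested.

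The order was the same in every library except for the pair below *Adra1d*. *Adra1d* was above *Adrb1* in 6 of 6 libraries, by a mean log2 ratio of 0.65 ± 0.26 (SD). *Adrb1* and *Adra1b* did not differ beyond their spread, since *Adrb1* was the higher in 4 libraries and *Adra1b* in WT replicates 1 and 2 (log2 ratio 0.06 ± 0.33). *Adra1b* was above *Adra2c* in 6 of 6 libraries, with a log2 ratio of 0.998 ± 0.40. *Adra2c* was above *Adra2a* in 6 of 6 libraries by 0.50 ± 0.32, and *Adra2a* was above *Adra1a* in 6 of 6 by 0.40 ± 0.21. In KO replicate 1 the difference between *Adra2c* and *Adra2a* shrank to 0.07.

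The place of *Adra1a* in this order rested on the length used. Its exons add up to 8728 bases over all annotated transcripts, while the longest of its 5 coding transcripts in GENCODE M21 has 4282 bases. With the longest coding transcript of each gene, a choice made after seeing the data, *Adra1a* averaged 4.17 ± 0.779 FPKM and stood above *Adra2c* (3.78 ± 0.473 FPKM) and *Adra2a* (2.73 ± 0.654 FPKM). *Adra1d*, *Adrb1* and *Adra1b* remained the 3 highest, at 12.4, 9.07 and 7.75 FPKM. With the shortest coding transcript of at least 1000 bases, *Adra1b* came first at 14.6 ± 2.97 FPKM, ahead of *Adra1d* at 12.4 ± 1.41 FPKM.

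**Figure D1:**
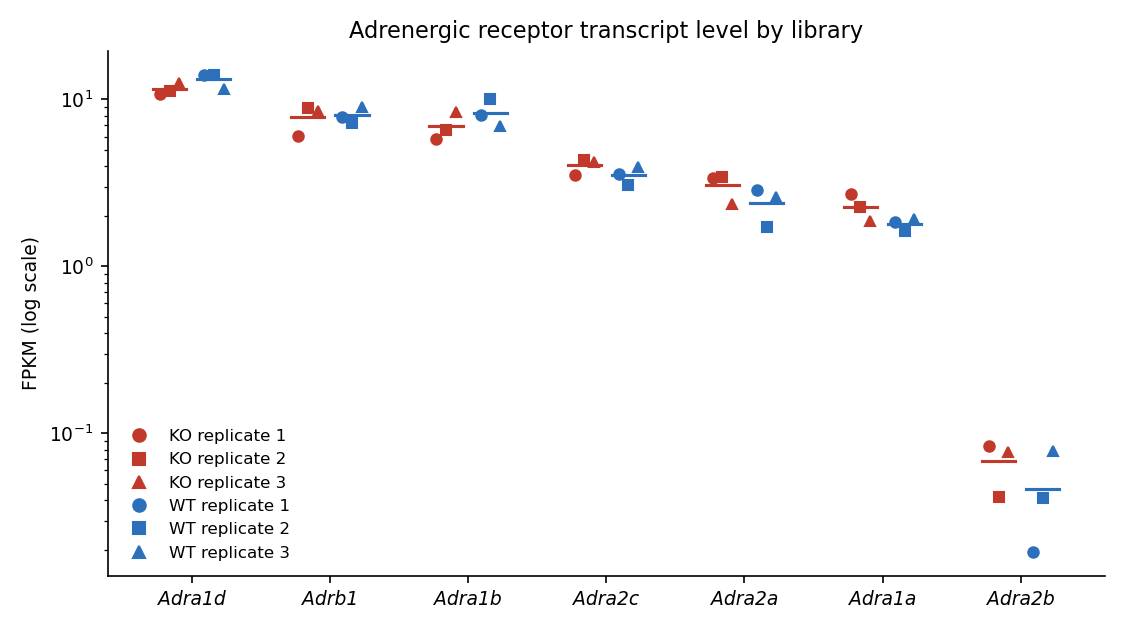
Level of 7 adrenergic receptor transcripts in FPKM on a log axis, 1 point per library with KO in red and WT in blue, and a bar at each group's mean of 3. *Adra1d* is the highest in all 6 libraries, *Adra2b* lies between 0.0195 and 0.0842 FPKM, and the groups overlap for every gene.

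*Adra2b*, which encodes the alpha-2B receptor, had 5, 2 and 4 fragments in the KO libraries and 1, 2 and 4 in the WT libraries. These 18 fragments correspond to 0.0571 ± 0.0266 FPKM over 6 libraries. The gene stayed under the filter of 6 fragments in at least 1 library, so 6 of the 7 members entered the comparison of KO with WT. In a limma-voom fit with no filter beyond 1 fragment, KO over WT was 0.58 on the log2 scale (SE 0.66, unadjusted p = 0.387), so a difference was not detectable at this depth.

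Grouped by coupling, the alpha-1 genes made up most of the summed receptor level. Their share of the summed FPKM was 59.6%, 54.5% and 60.2% in KO, against 62.5%, 68.1% and 56.8% in WT. The alpha-2 genes held 21.6%, 21.3% and 17.5% in KO and 16.9%, 12.8% and 18.4% in WT. *Adrb1* held 21.7% ± 2.75 (SD, n = 3) in KO and 21.6% ± 2.98 in WT. The alpha-2 share was lowest and the alpha-1 share highest in WT replicate 2, and KO and WT overlapped in each class. The summed level itself was 35.7 ± 3.04 FPKM in KO and 37.4 ± 1.20 FPKM in WT.

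**Figure D2:**
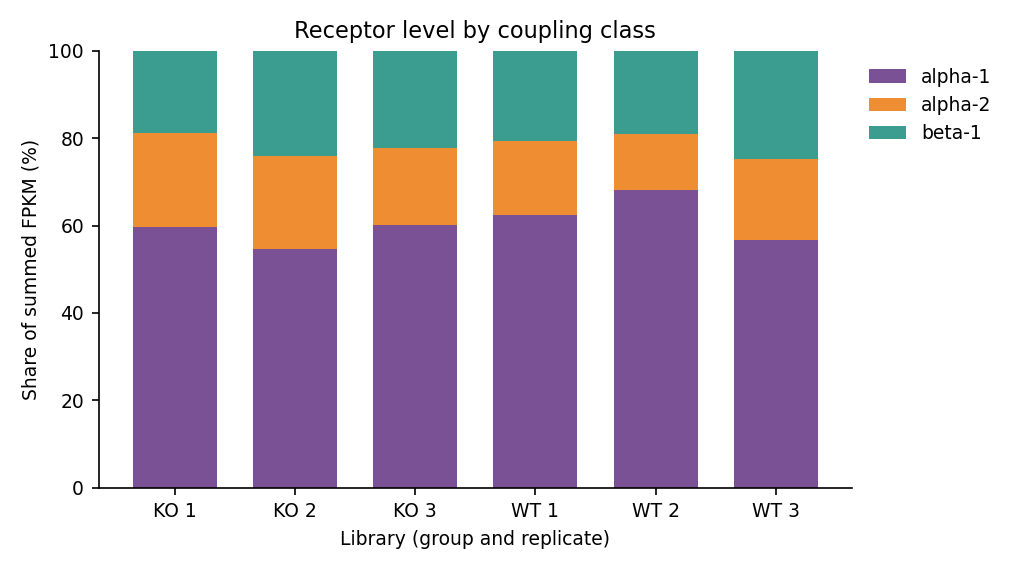
Share of the summed FPKM of 7 adrenergic receptor genes held by the alpha-1 genes (*Adra1a*, *Adra1b*, *Adra1d*), the alpha-2 genes (*Adra2a*, *Adra2b*, *Adra2c*) and beta-1 (*Adrb1*), as stacked bars from 0 to 100% for each of 6 libraries. The alpha-1 share runs from 54.5% in KO replicate 2 to 68.1% in WT replicate 2.

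To ask whether loss of *Pla2g4e* goes with a change in these receptors, KO was compared with WT in limma-voom over all genes tested. None of the 6 receptors tested passed an adjusted p-value of 0.05, as for all genes, of which 0% were called. By edgeR and DESeq2, 0 of the 6 receptors passed as well. At an unadjusted p-value under 0.05, 1 of the 6 was called, against 7.82% of all genes tested (4.38% higher and 3.44% lower in KO). The 6 were split evenly, with *Adra1a*, *Adra2a* and *Adra2c* higher in KO and *Adra1b*, *Adra1d* and *Adrb1* lower. Their median log2 fold change was 0.05, and that of all genes was 0.01. KO and WT values overlapped for all 6, whereas 13% of all genes had no overlap (6.72% higher and 6.29% lower in KO).

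Among the alpha-1 genes, *Adra1a* was at 23.6, 19.8 and 16.4 CPM in KO, against 16.1, 14.2 and 16.9 CPM in WT, from 174 to 349 fragments. KO replicates 1 and 2 were above every WT library, and KO replicate 3 was just below WT replicate 3. This is a log2 fold change of 0.33 (SE 0.14, 95% interval 0.03 to 0.64, limma-voom unadjusted p = 0.0341, adjusted p = 0.635). The value depended on the libraries included. It was 0.19 without KO replicate 1 (unadjusted p = 0.180), 0.26 without WT replicate 2 (unadjusted p = 0.118) and 0.12 with both KO replicate 1 and WT replicate 2 left out (unadjusted p = 0.419 in limma-voom), the libraries at either end of the olfactory bulb marker level. The unadjusted p-value also rose above 0.05 without KO replicate 2 (0.0633) and without WT replicate 1 (0.0556), with log2 fold changes of 0.33 and 0.35 in limma-voom. It was 0.47 without KO replicate 3 (unadjusted p = 0.00447) and 0.38 without WT replicate 3 (unadjusted p = 0.0397 in limma-voom). The unadjusted p-value was also above 0.05 in the 4 libraries with Y-linked transcripts (0.21, unadjusted p = 0.175) and with library quality weights (0.28, unadjusted p = 0.0630 in limma-voom). With all 6 libraries and a sex covariate set by *Xist*, the log2 fold change was 0.34 (unadjusted p = 0.0144, adjusted p = 0.380 in limma-voom). Of the 17 alternatives run for *Adra1a*, 10 had an unadjusted p-value under 0.05.

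*Adra1b* went the other way. It stood at 19.5, 22.1 and 28.6 CPM in KO, against 27.4, 34.0 and 23.3 CPM in WT. The highest library was WT replicate 2 and the lowest KO replicate 1, the reverse of *Adra1a*. This is a log2 fold change of -0.28 (SE 0.15, 95% interval -0.61 to 0.06, limma-voom adjusted p = 0.653). With KO replicate 1 and WT replicate 2 left out it was -0.002. It was -0.14 without KO replicate 1 and -0.13 without WT replicate 2, and -0.43 without KO replicate 3 and -0.41 without WT replicate 3, where the unadjusted limma-voom p-values were 0.0171 and 0.0258. In the 4 libraries with Y-linked transcripts it was -0.16 (unadjusted p = 0.333 in limma-voom). *Adra1d* was at 20.4, 21.4 and 23.9 CPM in KO, against 26.5, 26.8 and 22.1 CPM in WT. KO over WT gave a log2 fold change of -0.20 (SE 0.11, 95% interval -0.43 to 0.04, limma-voom adjusted p = 0.653). Among the members it had the smallest standard error. Without WT replicate 3 it was -0.29 (unadjusted p = 0.0197 in limma-voom). With KO replicate 1 and WT replicate 2 left out it was -0.10 (unadjusted p = 0.489), and in the 4 libraries with Y-linked transcripts also -0.10 (unadjusted p = 0.448 in limma-voom).

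Among the alpha-2 genes, *Adra2a* had the widest spread of the 6 receptors. It was at 16.3, 16.7 and 11.4 CPM in KO, against 13.9, 8.27 and 12.6 CPM in WT, a 2.02-fold range over the 6 libraries. WT replicate 2 was the lowest, with 101 fragments. This is a log2 fold change of 0.36 (SE 0.20, 95% interval -0.06 to 0.79, limma-voom unadjusted p = 0.0881, adjusted p = 0.649). Without WT replicate 2 and KO replicate 1 it was 0.05. It was 0.15 without WT replicate 2 alone, and 0.54 without KO replicate 3 and 0.51 without WT replicate 1, where the unadjusted limma-voom p-values were 0.0138 and 0.0384. *Adra2c*, whose alpha-2C product is known from striatum as well as cortex, was at 12.2, 14.9 and 14.6 CPM in KO, against 12.3, 10.6 and 13.6 CPM in WT. KO over WT gave a log2 fold change of 0.18 (SE 0.14, 95% interval -0.11 to 0.47, limma-voom adjusted p = 0.725). It was 0.19 with those libraries left out together, 0.09 without WT replicate 2 alone, 0.28 without KO replicate 1 alone and 0.29 in the 4 libraries with Y-linked transcripts.

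*Adrb1* was at 20.5, 30.1 and 28.7 CPM in KO, against 26.7, 24.5 and 30.3 CPM in WT. KO replicate 1 was the lowest of all 6 libraries, while KO replicates 2 and 3 lay within the WT range. The log2 fold change of -0.07 (SE 0.14, 95% interval -0.38 to 0.23) did not pass (adjusted p = 0.901 by limma-voom), and its direction changed when KO replicate 1 was left out (0.115) or WT replicate 3 was left out (0.006).

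**Figure D3:**
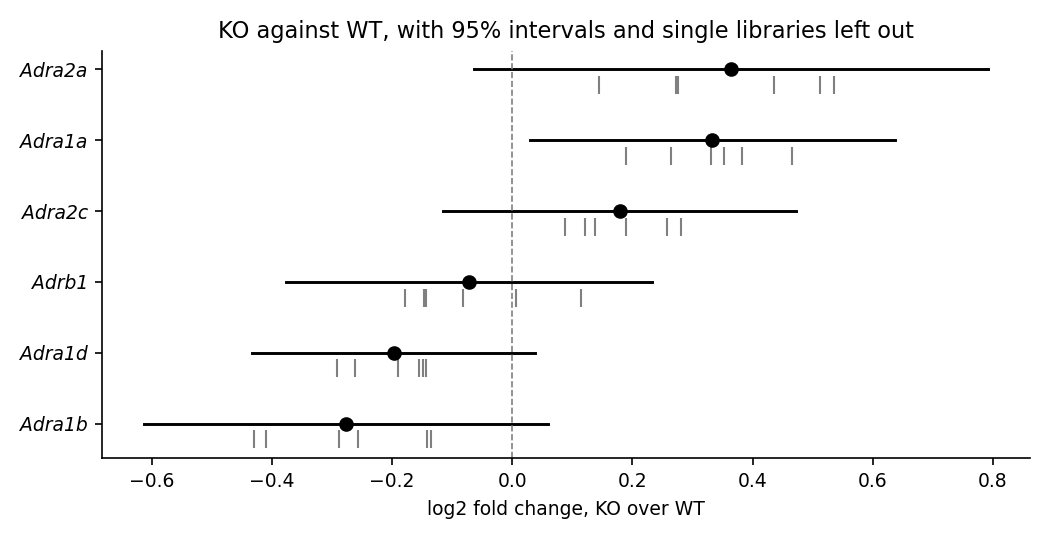
Log2 fold change of KO over WT for the 6 receptors tested, as points with 95% intervals from limma-voom. Grey ticks give the values with each library left out in turn. The interval of *Adra1a* (0.03 to 0.64) lies above 0 and the other 5 include 0.

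The spread between libraries of a group was larger than counting error for the 6 receptors tested. For *Adra1b* the coefficient of variation was 19.9% in KO and 19.2% in WT, where its mean fragment number alone gives 5.50%. For *Adra2a* it was 19.9% and 25.3%, against 7.66% from counting. For *Adra1d* it was 8.24% in KO and 10.5% in WT, against 5.76% from counting, and for *Adra2c* 10.8% and 12.1%, against 7.73%. Fragments carry no molecular identifiers, so these values cover counting error only. The intervals above allow changes of *Adra1d* in KO from 0.741 to 1.03 times WT and of *Adra2a* from 0.957 to 1.73 times.

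The receptors fell into opposed patterns across the 6 libraries. As a description over 6 libraries, which share their depth and composition with every gene, the Pearson correlation of log2 CPM was 0.92 between *Adra1b* and *Adra1d* and 0.85 between *Adra1a* and *Adra2a*. It was -0.93 between *Adra1a* and *Adra1b* and -0.90 between *Adra1b* and *Adra2a*. *Adra2c* and *Adrb1* varied with each other more than with the rest (0.68). The log2 ratio of *Adra1a* to *Adra1b* per length was -1.10, -1.53 and -2.17 in KO, against -2.13, -2.63 and -1.83 in WT. The groups overlapped because KO replicate 3 was below WT replicates 1 and 3.

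Marker genes of other cells varied with the same libraries. The 9 olfactory bulb markers, all tested, had a mean log2 deviation from the 6-library mean of 1.91 in KO replicate 1 and -1.43 in WT replicate 2. It lay between -0.42 and 0.27 in the other 4. Their summed level was 200 to 619 CPM in KO and 135 to 270 CPM in WT. *Adra1a* varied with this list at a Pearson correlation of 0.91 and *Adra2a* at 0.81, while *Adra1b* was at -0.83 and *Adra1d* at -0.65. *Adrb1* was at -0.55 and *Adra2c* at 0.12. All 9 markers were higher in KO, 3 of them at an unadjusted p-value under 0.05 and 0 after adjustment in limma-voom. *Eomes*, a transcription factor of bulb projection neurons, was at 23.2 CPM in KO replicate 1 and at 0 in WT replicate 2. In bulk tissue, fewer cells of a type and less RNA per cell cannot be told apart. The part of this difference in the receptor values was not tested.

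The summed level of striatal neuron markers was 400 to 519 CPM in KO and 309 to 492 CPM in WT, with 10 of 10 genes higher in KO, 1 of them at an unadjusted p-value under 0.05. Their Pearson correlation over the 6 libraries was 0.80 with *Adra2c*, -0.78 with *Adra1d*, -0.62 with *Adra1b* and between 0.44 and 0.54 with the other 3. *Drd2*, the dopamine receptor of striatal indirect-pathway neurons, was at 1.25 CPM in WT replicate 1 and 7.85 CPM in WT replicate 3. *Adra2c* also varied with oligodendrocyte markers (0.73), 7 of 8 of them higher in KO, which were at 1239 to 1396 CPM in KO and 912 to 1545 CPM in WT. The part of these cells in the *Adra2c* values was not tested.

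Neuron markers were lower in KO for 6 of 8 genes, 2 of the 8 at an unadjusted p-value under 0.05 and 0 after adjustment in limma-voom (median log2 fold change -0.13). They correlated at 0.76 with *Adra1d* and -0.76 with *Adra2c* and summed to 6439 to 6995 CPM in KO and 6922 to 7959 CPM in WT. The 2 higher in KO were the inhibitory neuron markers *Gad1* and *Gad2*. Both were highest in KO replicate 1 (581 and 228 CPM), where the excitatory marker *Slc17a7* was lowest (1161 CPM), so the list mean joins opposed patterns. Vascular markers, 3 of 9 higher and 6 lower in KO with 0 under 0.05 unadjusted, correlated at 0.71 with *Adra2c* and summed to 319 to 342 CPM in KO and 315 to 374 CPM in WT. All 8 astrocyte markers had a fitted log2 fold change above 0, with 0 under 0.05 unadjusted, although the mean CPM of *Gfap* was lower in KO (139 against 155). They summed to 4786 to 5302 CPM in KO and 4535 to 5277 CPM in WT and correlated with *Adra2a* at 0.59. For the deep and upper cortical layer lists, the mean deviation over the list was at most 0.09 (log2) in any library, although single members varied more, such as the deep-layer marker *Syt6* from 32.2 to 86.4 CPM. The correlations of these lists with the 6 receptors lay between -0.43 and 0.53. The part of these lists in the receptor values was not tested.

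**Figure D4:**
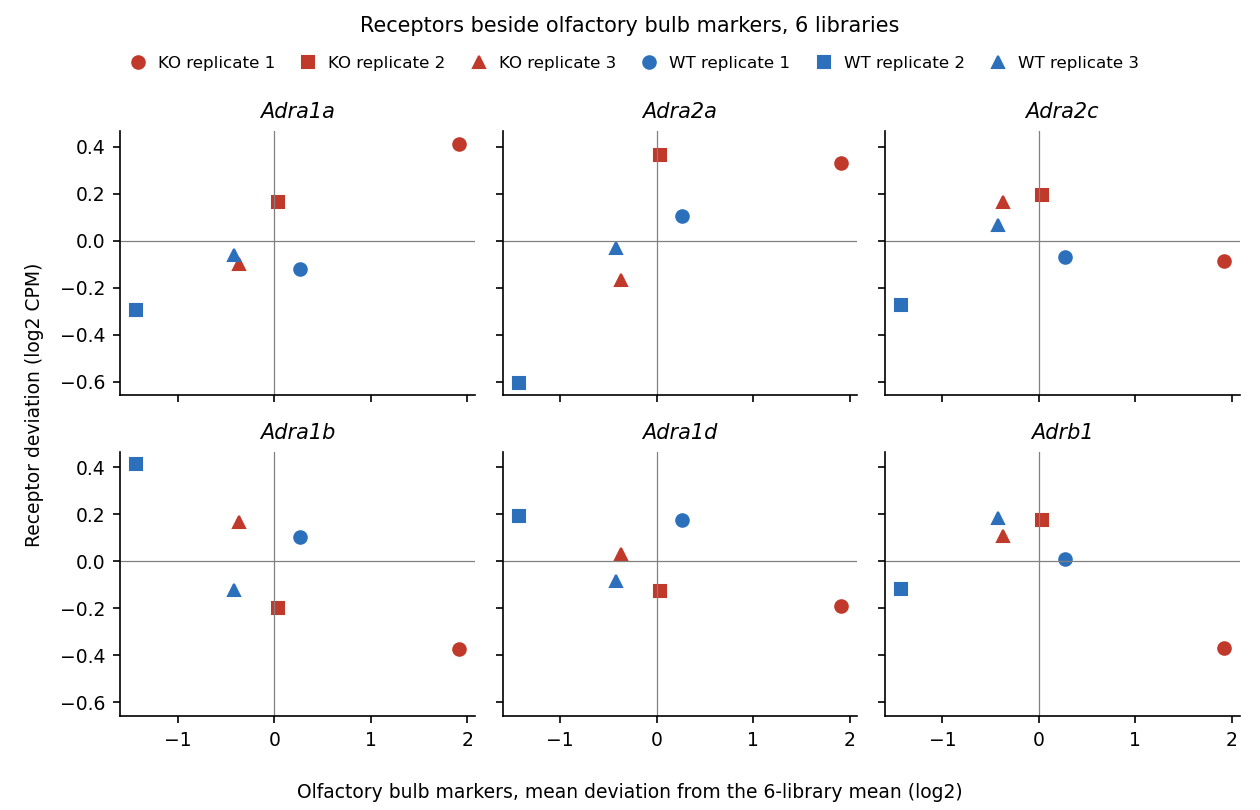
Deviation of each receptor from its 6-library mean (log2 CPM, vertical) beside the mean deviation of 9 olfactory bulb markers (log2, horizontal), 1 point per library with KO in red and WT in blue. KO replicate 1 (1.91) and WT replicate 2 (-1.43) lie at the ends of the marker axis, where *Adra1a* and *Adra2a* are high and low and *Adra1b* is low and high.

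The genes whose pattern was closest to each receptor were searched among 10796 genes whose log2 CPM averaged 3 or more. *Adra1b* was closest to *Fezf2*, a transcription factor of deep-layer projection neurons (Pearson r = 0.9997 over 6 libraries), and then to *Stoml2* (0.998). With the whole deep-layer list, to which *Fezf2* belongs, the correlation of *Adra1b* was -0.43, but members of that list were opposed. *Tle4* and *Hs3st4* were, like *Adra1b*, lowest in KO replicate 1 (39.2 and 31.2 CPM) and highest in WT replicate 2 (56.7 and 51.5 CPM). *Syt6* and *Nxph4* were highest in KO replicate 1 (86.4 and 5.34 CPM) and lowest in WT replicate 2 (32.2 and 1.47 CPM). *Bcl11b*, *Foxp2* and *Ccn2* had neither pattern. *Fezf2* was at 25.9, 29.6 and 40.7 CPM in KO, against 38.4, 49.4 and 32.0 CPM in WT. *Adra1a* was closest to *Dzip3* and *E130308A19Rik* (each 0.996), *Adra1d* to *Add1* and *Nckipsd* (each 0.992) and *Adra2a* to *Trp53inp2* (0.999) and *Nacc2* (0.997). *Adra2c* was closest to *Snx8* (0.991) and *Ppcdc* (0.989), and *Adrb1* to *Atad2* (0.983) and *Grm7* (0.981). Over 6 libraries, high values were not confined to the genes named. Of the 10796 genes searched, 311 had a correlation above 0.9 with *Adra1b* and 52 with *Adrb1*.

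The ligand side of the pathway was sparse in this tissue, which receives noradrenergic axons but not their cell bodies. *Dbh*, which makes noradrenaline from dopamine, had 0 to 10 fragments per library, and *Slc6a2*, the noradrenaline transporter, had at most 1. Of the noradrenergic neuron markers, *Th* and *Dbh* passed the filter. *Th*, the rate-limiting enzyme of catecholamine synthesis and also a marker of bulb interneurons, was at 39.1, 9.55 and 5.86 CPM in KO, against 9.48, 1.15 and 4.47 CPM in WT. The highest and lowest libraries were again KO replicate 1 and WT replicate 2. KO over WT gave a log2 fold change of 1.87 (SE 0.82, limma-voom unadjusted p = 0.0412, adjusted p = 0.635). The degrading enzymes were steadier. *Maob*, a monoamine oxidase, was at 26.6 ± 0.833 CPM in KO, against 29.1 ± 1.28 CPM in WT (log2 fold change -0.12, adjusted p = 0.698 by limma-voom). Of the 8 genes tested for synthesis, transport and breakdown, 5 were higher and 3 lower in KO by the fitted fold change, 1 at an unadjusted p-value under 0.05 and 0 after adjustment. *Dbh* is among the 5, although its mean was 0.249 CPM in KO and 0.366 CPM in WT. Without KO replicate 1, and likewise without WT replicate 2, 0 were under 0.05. Of all genes, 830 and 782 were under 0.05 in those fits, against 1492 (7.82%) in the main fit.

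Downstream of the receptors, 4 further lists were read from the same fit, and with the ligand list 64 genes were tested. Of these, 0 passed after adjustment in limma-voom and 8 had an unadjusted p-value under 0.05, or 12.5%, against 7.82% of all genes. This number was 2 without KO replicate 1, 2 without WT replicate 2, 12 without WT replicate 3 and 5 with library totals alone. Over all genes the number was 1492, and in those fits 830, 782, 2239 and 1489 in turn. Of the 8 G protein alpha subunits tested, 7 had a fitted log2 fold change below 0, as did 9185 of the 19084 genes, and the median was -0.07. At an unadjusted p-value under 0.05 there were 0 in limma-voom and in edgeR, 3 under the replicate block, and 1 or 2 in each fit with a library left out other than WT replicate 2, where there were 0. Among them *Gnaz*, a Gi family subunit, was at 84.6 ± 8.34 CPM in KO, against 95.9 ± 7.31 CPM in WT, and *Gnai3* was at 32.3 ± 4.07 and 28.1 ± 4.47 CPM. *Gnas*, the Gs subunit and the most abundant of the list, averaged 998 ± 43.3 CPM in KO, against 1085 ± 70.5 CPM in WT, with overlap. *Gnaq*, the Gq subunit, averaged 223 ± 10.2 CPM in KO, against 240.0 ± 8.86 CPM in WT, without overlap (unadjusted p = 0.0900 and 0.113 in limma-voom). Of all genes tested, 13% had no overlap. *Gnao1*, at 796 ± 27.4 and 807 ± 35.8 CPM, differed by less than its spread.

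On the Gq branch, 5 of 12 genes of phospholipase C, protein kinase C and the IP3 receptors (*Itpr1*, *Itpr2* and *Itpr3*), which release calcium, were higher in KO and 7 lower, and 2 had an unadjusted p-value under 0.05. This number was 1 without KO replicate 1, 1 without WT replicate 2 and 4 without KO replicate 3. Of all genes, 7.82% (1492) were under 0.05 in the main fit, and 830, 782 and 1527 genes in those fits. *Prkcd*, a protein kinase C isoform, was at 10.7, 12.7 and 11.8 CPM in KO, against 9.25, 8.35 and 8.63 CPM in WT, so the groups did not overlap. KO over WT gave a log2 fold change of 0.41 (SE 0.13, limma-voom unadjusted p = 0.00824, adjusted p = 0.635). *Prkca* was at 286 ± 28.7 CPM in KO, against 245 ± 12.7 CPM in WT, also without overlap, with an unadjusted p-value of 0.0150 in limma-voom. Of the 64 pathway genes tested, those without overlap were *Maob*, *Gnaq*, *Prkca*, *Prkcd*, *Rgs16* and *Ppp1r9b*, and 13% of all genes had none. *Prkce* had the lowest p-value of those lower in KO (unadjusted p = 0.166 in limma-voom).

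On the cAMP branch, 13 of 21 genes were lower in KO, and 4 had an unadjusted p-value under 0.05, against 7.82% of all genes. This number was 0 without KO replicate 1 and 0 without WT replicate 2, the libraries at the ends of the olfactory bulb marker level. Without WT replicate 1, and likewise with library totals alone, it was 2. Over all genes, 830 were under 0.05 without KO replicate 1 and 782 without WT replicate 2, against 1492 in the main fit. The 6 genes of the list that encode subunits of protein kinase A, the cAMP-dependent kinase, were mixed. *Prkar1b*, *Prkaca* and *Prkar1a* were among the 4, *Prkacb* and *Prkar2b* were not (unadjusted p = 0.0538 and 0.0539 in limma-voom), and *Prkar2a* averaged 64.5 ± 0.947 CPM in KO, against 64.4 ± 1.42 CPM in WT. *Prkar1b* was at 687, 784 and 793 CPM in KO, against 972, 912 and 781 CPM in WT (log2 fold change -0.23, SE 0.09, adjusted p = 0.635 by limma-voom). WT replicate 3 was within the KO range. *Prkaca* was at 150 ± 10.2 CPM in KO, against 168 ± 10.7 CPM in WT, and *Prkar1a* at 624 ± 29.0 and 690 ± 42.0 CPM. The other of the 4 was *Rapgef3*, a cAMP-activated exchange factor for Rap proteins, at 64.5, 39.0 and 46.0 CPM in KO, against 42.2, 36.2 and 36.6 CPM in WT.

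Of the 15 genes on the list of receptor kinases, arrestins and RGS proteins, which end receptor signals, 5 were higher and 10 lower in KO. The 10 include *Ppp1r9b*, which encodes the scaffold spinophilin and belongs to none of these classes. *Rgs4*, which speeds the shut-off of Gi and Gq proteins, had the lowest p-value, with 317 ± 16.9 CPM in KO, against 362 ± 35.9 CPM in WT. By limma-voom its p was 0.0310 before and 0.635 after adjustment, and it was the member of this list under 0.05 unadjusted. Without KO replicate 1, and likewise without WT replicate 1, 0 members were under 0.05, and without WT replicate 3 there were 3. Of all genes, 830, 1019 and 2239 were under 0.05 in those fits, against 1492 (7.82%) in the main fit. *Grk3*, a receptor kinase, was at 189 ± 4.56 CPM in KO, against 181 ± 24.8 CPM in WT. *Arrb1* and *Arrb2*, the beta-arrestins, had unadjusted limma-voom p-values of 0.782 and 0.560.

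**Figure D5:**
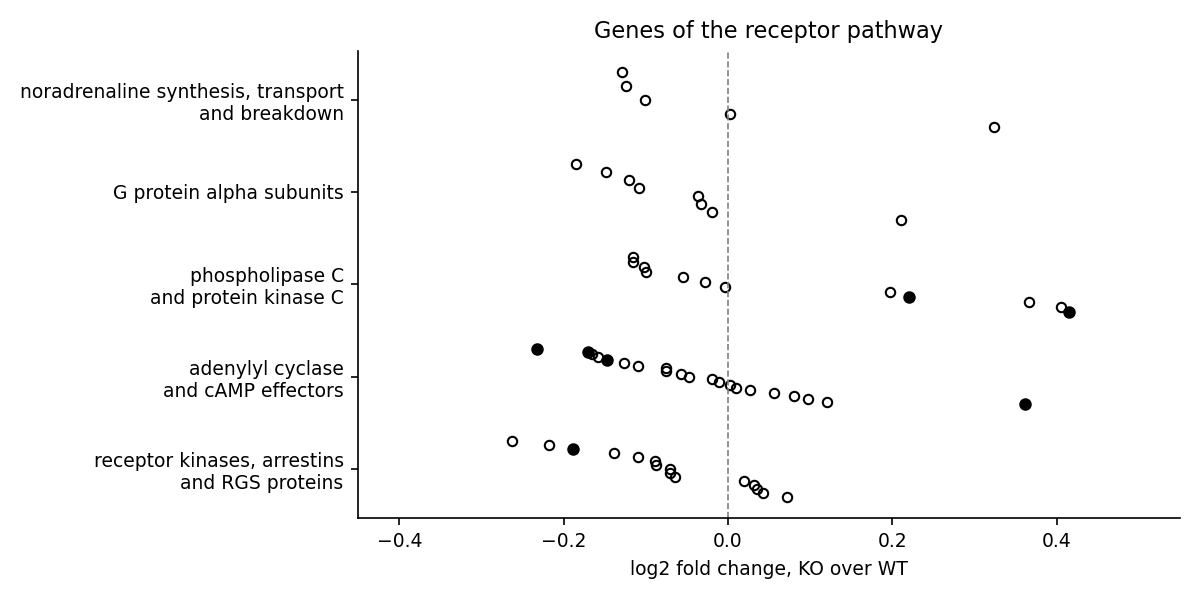
Log2 fold change of KO over WT for genes of 5 pathway lists, 1 circle per gene, filled where the unadjusted p-value in limma-voom is under 0.05. *Th*, *Dbh* and *Slc18a2* are not drawn, and 7 of 8 G protein alpha subunits lie to the left of 0.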

How the data were processed

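Polyadenylated RNA of 6 prefrontal cortex samples was sequenced as strand-specific libraries. The processing notes name STAR 2.7.9a and GRCm39. The authors deposited raw counts of fragments over exons per gene, made with featureCounts 1.6.0 on GENCODE M31 per the file headers (the study's methods name an earlier build). Fragments that map to several places were not counted. Symbols matched 52073 of 56923 genes. The test (voom and limma) and the filter followed the study's methods. The 19084 genes with at least 6 fragments in at least 1 library were scaled by TMM (edgeR 4.0.16). The comparison of genotypes was a two-sided limma-voom test (limma 3.58.1, R 4.3.3) with Benjamini-Hochberg adjustment over all genes and no covariate. FPKM used the exon length in the files. Correlations used log2(CPM + 0.5). Scripts were tested on simulated data. Alternatives included the edgeR quasi-likelihood test, DESeq2 1.42.0, other scalings and filters, library weights, a replicate block, sex-linked splits and leaving out libraries. Receptors, pathway lists and marker lists (neuron, astrocyte, oligodendrocyte, vascular, striatal neuron, olfactory bulb, noradrenergic neuron, upper and deep cortical layers) were chosen with earlier results of these data known. Named by rule were the receptors, *Pla2g4e*, the gene of lowest p-value per direction in each pathway list and the 2 genes most like each receptor. *Slc17a7*, *Gad1*, *Eomes*, *Gfap*, *Drd2*, *Gnao1*, *Gnas*, *Gnaq*, *Syt6*, *Itpr1*, *Itpr2*, *Itpr3*, *Ppp1r9b*, *Prkacb*, *Prkar2a*, *Prkar2b*, *Arrb1*, *Arrb2*, *Prkca*, *Prkaca*, *Prkar1a*, *Dbh* and *Slc6a2* were named after their values were seen. *Tle4*, *Hs3st4*, *Nxph4*, *Bcl11b*, *Foxp2*, *Ccn2*, *Gad2* and *Rgs16* were also named after their values were seen. Protein sequences were not used here. Some members of the lists are not reported here.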

Additional observations from a re-analysis of the deposited data

How the results depend on the processing

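The directions of *Adra1a*, *Adra1b*, *Adra1d*, *Adra2a* and *Adra2c* were the same under 17 alternatives each, and adjusted p stayed above 0.05 for all 6 receptors in each. The alternatives reuse the same 6 libraries, and some values of the same sign were close to 0. For *Adra1a* the log2 fold change ranged from 0.12 to 0.47 and the adjusted p-value from 0.380 to 0.999. The log2 fold change ranged from -0.43 to -0.002 for *Adra1b* and from 0.05 to 0.54 for *Adra2a*. It ranged from -0.29 to -0.095 for *Adra1d* and from 0.09 to 0.29 for *Adra2c*. *Adrb1* changed direction with library quality weights (0.008), in the 4 libraries with Y-linked expression (0.105) and in the 4 libraries of middle olfactory bulb marker level (0.044), and ranged from -0.18 to 0.115 with single libraries left out. Leaving out the libraries of extreme marker level was chosen after seeing the data.

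Over all genes, the number past the adjusted threshold was 1 with DESeq2, 24 with the sex covariate, 3 in the 4 libraries with Y-linked expression and 1 in those of middle olfactory bulb marker level. The number at an unadjusted p-value under 0.05 was 902, 696 and 690 with DESeq2 and in these sets of 4 libraries. With single libraries left out the numbers were 0 to 1 and 782 to 2239. It was 830 without KO replicate 1, 782 without WT replicate 2 and 2239 without WT replicate 3.

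Without division by length, the mean log2 ratio was -0.18 for *Adra1d* over *Adrb1*, 0.013 for *Adra2c* over *Adra2a*, -0.46 for *Adra2a* over *Adra1a* and 6.43 for *Adra1a* over *Adra2b*, and the alpha-2 share was 22.0%. With the longest coding transcript, the last pairs were at -0.63 and 6.34. With the shortest, *Adrb1* over *Adra1b* was at -0.68, *Adra1b* over *Adra2c* at 1.94, *Adra2c* over *Adra2a* at 0.073, *Adra2a* over *Adra1a* at -1.08 and *Adra1a* over *Adra2b* at 7.18. The transcript lengths were added after seeing the data. These shifts follow from the lengths alone. With single libraries left out, *Adrb1* over *Adra1b* ranged from -0.012 to 0.172.

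Samples that share a replicate number deviated from their groups with correlations of 0.356, 0.089 and -0.032. The value of 0.356 belongs to KO replicate 1 and WT replicate 1, the libraries with high *Xist*. The labels state no pairing, and with 3 samples per group these values cannot decide whether the samples were paired. Under the replicate block, 3 G protein alpha subunits had an unadjusted p-value under 0.05, 0 genes passed after adjustment and 1693 were under 0.05 unadjusted, and no receptor changed direction (*Adra1a* 0.34, unadjusted p = 0.0201 in limma-voom). With library totals alone, 2 cAMP genes and 0 kinases, arrestins and RGS proteins had an unadjusted p-value under 0.05. With single libraries left out, the numbers ranged from 0 to 2 for the noradrenaline and G protein lists, 1 to 4 for phospholipase C, protein kinase C and IP3 receptors, 0 to 5 for the cAMP list and 0 to 3 for kinases, arrestins and RGS proteins. The causes were not tested. Depth limits *Adra2b* most, with 1 to 5 fragments in a library.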
